A study of Canis lupus familiaris with 10 samples.

Results

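The 6 genes described here encode enzymes of fat and energy metabolism: LIPE, PDK4, GLUL, CKM, AMPD3 and PLCD4. They were picked from the study's own list of genes that differed between Post-ACTH and Pre-ACTH, were matched from symbol to Ensembl identifier through that list, and make up 6 of the 19856 genes in the count tables and 6 of the 13577 genes tested. Because the contrast between Post-ACTH and Pre-ACTH chose them, their change in that contrast is given as a description. Where an FDR of these genes is given for it, nothing is concluded from that FDR.

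Abdominal surgery gave visceral adipose tissue (VAT) of 5 adult Beagle dogs (dogs 1, 4 and 5 male, dogs 2 and 3 female), once untreated, the Pre-ACTH group, and once at the end of 25 weeks of continuous tetracosactide, the Post-ACTH group. Tetracosactide is a synthetic ACTH analog that makes the adrenal cortex release cortisol, and osmotic pumps, renewed every 4 weeks, delivered 1.3 to 1.95 μg/kg per day at first and 6 to 10 μg/kg per day at the end. Each dog served as its own control and no untreated dog was sampled at both times, so treatment, elapsed time and a second operation cannot be told apart. The 10 RNA-seq libraries held 8728330 to 14867529 counted reads, the smallest being the Pre-ACTH library of dog 3, and all 6 genes had at least 31 reads in every library.

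In adipocytes, stored triglyceride is broken down stepwise by lipases, and hormone-sensitive lipase (LIPE) acts on the diglyceride step under the control of beta-adrenergic and cAMP signaling. PDK4 phosphorylates and thereby inactivates the pyruvate dehydrogenase complex, which spares glucose carbon while fatty acids are burned, and GLUL joins glutamate and ammonia to glutamine. Both PDK4 and GLUL are long known as glucocorticoid-responsive genes. CKM, the muscle form of creatine kinase, transfers phosphate between ATP and creatine, AMPD3 deaminates AMP to IMP, and PLCD4 is a phospholipase C that splits a membrane phosphoinositide into second messengers.

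All 6 genes had higher average normalized counts in Post-ACTH (reads divided by the TMM-scaled library size, times the mean library size). The fitted log2 fold change (log2FC) was smallest for LIPE, at 0.48 (SE 0.11), and largest for CKM, at 3.58 (SE 0.26), with PDK4 at 0.54 (SE 0.15), AMPD3 at 0.99 (SE 0.35), GLUL at 1.26 (SE 0.19) and PLCD4 at 2.12 (SE 0.18) between them (n = 5 dogs). Of 30 comparisons of a gene within a dog, 29 were higher in Post-ACTH, the exception being AMPD3 in dog 1, so that 5 of the 6 genes were higher in all 5 dogs, as were 13.4% of all tested genes. For LIPE, GLUL, CKM and PLCD4 the lowest Post-ACTH value lay above the highest Pre-ACTH value, which was the case for 4.30% of all tested genes. With edgeR's quasi-likelihood test and the dog as a block, CKM, PLCD4 and GLUL had an FDR under 0.01, as had 1.97% of all tested genes, and LIPE joined them at FDR under 0.05, as did 11.1% of all. Nothing is read from these counts, since the genes were chosen from the same contrast. The count under 0.01 was 0 without dog 3, 1 without dog 2 or dog 5 and 2 without dog 4.

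**Figure D1:**
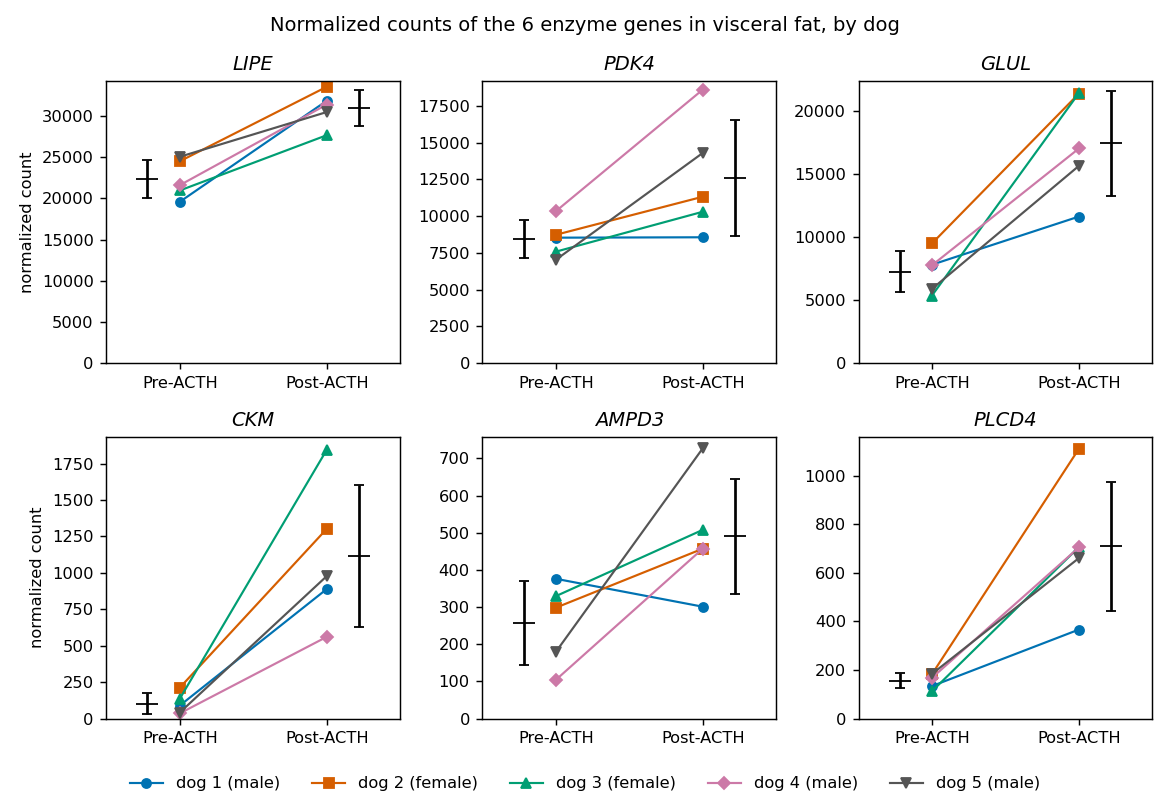
Normalized counts (linear axis from 0) of the 6 genes in Pre-ACTH and Post-ACTH, with 1 line per dog and, beside each group, its mean and SD (n = 5). Groups are separate for LIPE, GLUL, CKM and PLCD4 and overlap for PDK4 and AMPD3, and dog 1 has the lowest Post-ACTH value of PDK4, GLUL, AMPD3 and PLCD4.

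LIPE (ENSCAFG00000004813) ranked 43 of 13577 by its Pre-ACTH reads, which are not corrected for transcript length. Its normalized counts in dogs 1 to 5 were 19596, 24523, 20972, 21617 and 25067 in Pre-ACTH and 31874, 33574, 27688, 31416 and 30505 in Post-ACTH. The mean went from 22355 ± 2352 to 31012 ± 2166 (SD, n = 5), and the lowest Post-ACTH value exceeded the highest Pre-ACTH value by a factor of only 1.10. LIPE was the most even of the 6 genes, with a coefficient of variation between dogs of 10.5% before and 6.99% after treatment. Dog 1 showed its largest log2 ratio, 0.70, and dog 5 its smallest, 0.28.

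PDK4 (ENSCAFG00000002129) had normalized counts of 8536, 8732, 7584, 10339 and 7034 in dogs 1 to 5 in Pre-ACTH and of 8563, 11324, 10301, 18620 and 14308 in Post-ACTH. The groups overlapped, since 2 Post-ACTH values, those of dogs 1 and 3, lay below the highest Pre-ACTH value, that of dog 4. The dogs were close to each other before treatment (coefficient of variation 15.0%) and further apart after it (31.3%). The log2 ratio was 0.0046 in dog 1, so that this dog showed practically the same level at both times, and 1.02 in dog 5.

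GLUL (ENSCAFG00000013102) had normalized counts of 7816, 9506, 5367, 7769 and 5893 in Pre-ACTH and of 11640, 21415, 21455, 17050 and 15671 in Post-ACTH. Every Post-ACTH value lay above every Pre-ACTH value, and the means, 7270 ± 1663 and 17446 ± 4149 (SD, n = 5), stood 2.40 times apart. Dog 3 had the largest log2 ratio, 2.00, dogs 2, 4 and 5 had 1.13 to 1.41, and dog 1 had the smallest, 0.57.

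CKM (ENSCAFG00000004507) had few reads before treatment, at rank 9423 of 13577. Its normalized counts were 89.6, 212, 137, 35.9 and 41.7 in Pre-ACTH and 889, 1302, 1844, 561 and 978 in Post-ACTH. The lowest of these rests on 31 reads, for which counting error alone gives an exact 95% Poisson interval of 21.1 to 44.0 reads. The mean was 10.8 times higher in Post-ACTH (103 ± 73.3 and 1115 ± 486, SD, n = 5), and the lowest Post-ACTH value was 2.64 times the highest Pre-ACTH value. Dog 2 showed the smallest fold, 6.09, and dog 5 the largest, 22.4. CKM overlaps KLC3, as GLUL overlaps RGSL1, in RefSeq's annotation of another dog assembly, and reads of such pairs are uncertain where strand was not used. By its log2 fold change CKM ranked 18 of all 13577 tested genes.

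AMPD3 (ENSCAFG00000007562) was the least even of the 6 genes in its response. Its normalized counts were 376, 298, 330, 104 and 180 in Pre-ACTH and 301, 457, 508, 458 and 728 in Post-ACTH. Dogs 4 and 5, which started lowest, had log2 ratios of 2.11 and 2.01, and dogs 2 and 3 had 0.61 and 0.62. Dog 1, which started highest, had -0.32. The Pre-ACTH count is part of each ratio, so the order of the starting levels and that of the ratios are not independent. The SD of the log2 ratio between dogs was 1.03 and hence about as large as the mean ratio of 1.01, while for the other genes it lay between 0.16 for LIPE and 0.70 for CKM.

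PLCD4 (ENSCAFG00000014832) had normalized counts of 134, 183, 113, 168 and 184 in Pre-ACTH and of 367, 1111, 706, 704.5 and 661 in Post-ACTH. The lowest Post-ACTH value, that of dog 1, was 1.99 times the highest Pre-ACTH value. The dogs were similar before treatment (coefficient of variation 20.3%) and spread further after it (37.3%), and the smallest log2 ratio was 1.44, in dog 1, and the largest 2.63, in dog 3.

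**Figure D2:**
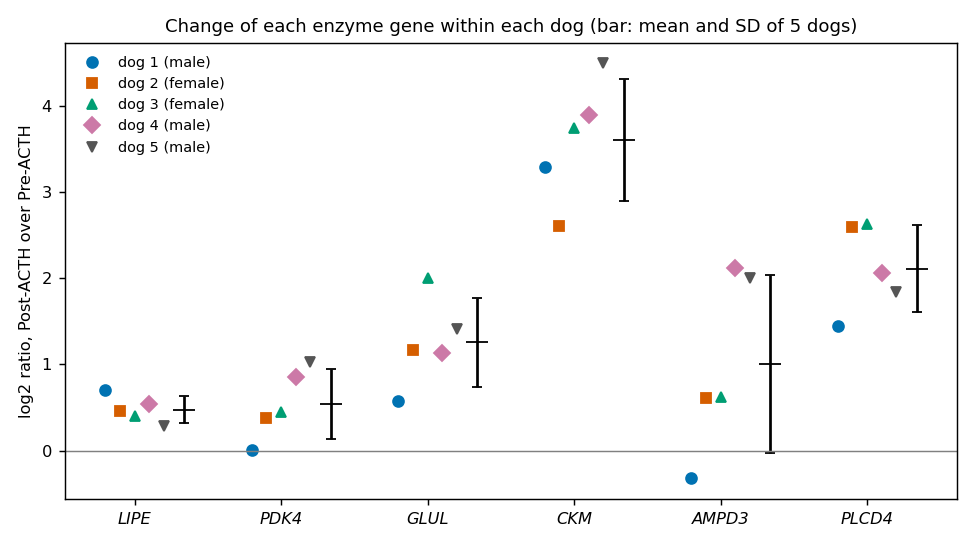
Log2 ratio of Post-ACTH over Pre-ACTH for each gene and dog, from log2 CPM with a prior count of 2, with the mean and SD of the 5 dogs at the right of each gene. Dog 1 is lowest for PDK4, GLUL, AMPD3 and PLCD4 but highest for LIPE, and AMPD3 in dog 1 is the only point under 0.

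The dogs did not hold the same order from gene to gene. Dog 1 had the smallest log2 ratio of 4 of the 6 genes and the largest for LIPE, and the median of its 6 ratios was 0.64, against 0.89 in dog 2, 1.31 in dog 3, 1.59 in dog 4 and 1.62 in dog 5. The median over all tested genes, which the TMM scaling keeps small, lay between -0.011 and 0.0071 in the same dogs. As the 6 genes were chosen from this contrast, their distance from that median is no observation. Without dog 1 the fitted log2 fold change was 0.42 for LIPE, 0.67 for PDK4, 1.43 for GLUL, 3.64 for CKM, 1.32 for AMPD3 and 2.28 for PLCD4.

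The RNA came from whole tissue, in which fewer cells of a type and less RNA per cell cannot be told apart. Markers of other cell types could be matched only where they were in the study's list of genes called in the same contrast, so their direction and the separation of their groups are no independent observation. The identifiers covered 5 of 7 fibroblast and progenitor genes, whose summed level was 792 to 2230 CPM (reads scaled to a common library size) before treatment and 354 to 556 CPM after it, without overlap. LUM, COL1A2 and PI16, of the collagenous matrix and its progenitor cells, fell (log2FC -1.49, -1.68 and -3.29), and DCN and COL1A1 had lower averages without passing FDR under 0.01. The 3 of 9 smooth muscle genes covered (MYH11, DES and MYLK) summed to 145 to 256.5 CPM in Pre-ACTH and to 283 to 415 CPM in Post-ACTH. Of 8 macrophage genes only CSF1R was covered, at 60.8 to 131 CPM and at 31.3 to 73.05 CPM. None of the 10 white adipocyte, 7 brown or beige adipocyte, 28 skeletal muscle, 7 endothelial, 7 lymphocyte, 7 mesothelial and 7 erythroid markers had an identifier here, so the labelled tissue was not checked against its adipocyte markers. The part of these shifts in the values of the 6 genes was not tested.

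To place the 6 enzymes among their partners, 166 other genes of lipolysis, the pyruvate dehydrogenase switch and fatty acid oxidation, glutamine, phosphocreatine, adenine nucleotides and phospholipase C were listed. Only 23 of them carry a symbol in the study's list of called genes and could be followed. That list was drawn from the same samples and the same contrast. The direction of these genes and the number called among them are thus no independent observation. The 23 do not stand for their pathways, and their share called cannot be read against that of all genes. At FDR under 0.01 (edgeR quasi-likelihood test, dog as a block), 4 of the 23 rose and 5 fell, against 0.751% and 1.22% of all tested genes. None of the 23 was called without dog 2, without dog 3 or without dog 5, and 3 were called without dog 4.

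Among 5 genes that act with LIPE on stored fat, DGAT1, which makes triglyceride from diglyceride and so works in the opposite direction to the lipases, rose from 1647 ± 112 to 3327 ± 570 normalized counts (SD, n = 5), with log2FC 1.00 (SE 0.11, adjusted p = 0.00416). The genes of the adrenergic arm did not pass the threshold. ADRB1, the beta-1 adrenergic receptor, averaged 216 in Pre-ACTH and 120 in Post-ACTH (log2FC -0.78, SE 0.19, adjusted p = 0.0369), and ADRA2A, the receptor that restrains cAMP, averaged 92.1 and 31.3 (-1.64, SE 0.37, adjusted p = 0.0321). ADCY3, an adenylyl cyclase, stood at -0.49 (SE 0.10, adjusted p = 0.0248) and LIPA, the lysosomal acid lipase, at -0.69 (SE 0.16, adjusted p = 0.0350). All 4 were lower in Post-ACTH in all 5 dogs, whereas LIPE and DGAT1 were higher in all 5, as were 13.4% of all tested genes. The share of genes lower in all 5 dogs was not worked out. These genes came from the study's list of genes called in the same paired contrast, so their directions are no independent observation. Reads of LIPE were 12.4 to 15.7 times those of DGAT1 in the Pre-ACTH libraries and 7.77 to 10.6 times in the Post-ACTH libraries.

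PDK4 has a counterpart in PDP1, a phosphatase that reactivates pyruvate dehydrogenase. PDP1 rose as well, from 1727 to 2410 normalized counts over the Pre-ACTH samples to 3768 to 4324 over the Post-ACTH samples, with log2FC 0.93 (SE 0.09, adjusted p = 0.00310). Within a library, the reads of PDK4 were 3.54, 5.06, 3.49, 4.74 and 3.85 times those of PDP1 in dogs 1 to 5 in Pre-ACTH and 2.21, 2.95, 2.72, 4.31 and 3.80 times in Post-ACTH. This ratio was lower in Post-ACTH in all 5 dogs although both transcripts averaged more, and its groups overlapped. In dog 5 it barely differed (3.85 and 3.80), and its counting error was not worked out. Both genes came from the study's list of called genes, so this is no independent observation. CPT2, of the mitochondrial import of fatty acids, averaged 896 and 618 normalized counts (log2FC -0.52, SE 0.12, adjusted p = 0.0363).

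Of the genes listed beside GLUL, SLC1A2, a glutamate carrier, fell from 36.6 ± 16.4 to 3.11 ± 1.36 normalized counts (log2FC -3.47, SE 0.42, adjusted p = 0.00517), a change that rests on few reads, 2 in the lowest library. SLC3A2, the heavy chain shared by several amino acid exchangers, averaged 519 and 1026 (1.00, SE 0.19, adjusted p = 0.0197) and PSAT1, a serine synthesis enzyme that uses glutamate, 221 and 410 (0.93, SE 0.15, adjusted p = 0.0107). Neither passed FDR under 0.01.

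CKB, the brain-type creatine kinase, averaged 8388 ± 1846 normalized counts before treatment and 16699 ± 5544 after it (SD, n = 5), with log2FC 0.97 (SE 0.15, adjusted p = 0.0112), and did not pass FDR under 0.01. The share of CKM in the reads of both genes was 0.965%, 2.08%, 2.46%, 0.458% and 0.435% in dogs 1 to 5 in Pre-ACTH and 6.75%, 4.77%, 12.6%, 3.22% and 5.91% in Post-ACTH. The Wilson 95% intervals of the highest Pre-ACTH share (2.02% to 2.99%) and the lowest Post-ACTH share (2.97% to 3.48%), which cover counting error only, just met, while every single dog had a higher share in Post-ACTH. These are shares of reads and not of molecules, since transcript lengths were not used. ALPL, an alkaline phosphatase, averaged 36.6 and 96.1 (log2FC 1.32, SE 0.21, adjusted p = 0.0110).

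CKM is best known from striated muscle. No gene of the skeletal muscle list could be followed, but TTN, the giant sarcomere protein titin, was in the study's list, called in the same contrast, and was singled out here after its values were seen. TTN fell in all 5 dogs, from 76.8, 359, 399, 285 and 219 normalized counts to 11.8, 89.9, 221, 59.6 and 24.2 (log2FC -2.07, SE 0.31, adjusted p = 0.00952). CKM and TTN moved in opposite directions in every dog, but both were taken from the study's list with their directions known, so this is no independent observation. DES, the intermediate filament desmin of smooth and striated muscle, averaged 28.0 and 71.2 normalized counts (1.40, SE 0.28, adjusted p = 0.0231), and MYLK, the smooth muscle myosin kinase, rose by 0.75 (SE 0.11, adjusted p = 0.00933). The part of muscle tissue in the CKM values was not tested.

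Around AMPD3, XDH, the enzyme that turns hypoxanthine and xanthine into uric acid, rose from 3550 ± 853 to 11189 ± 2852 normalized counts (log2FC 1.65, SE 0.18, adjusted p = 0.00382), and IMPDH2, which takes IMP toward guanine nucleotides, rose by 0.80 (SE 0.09, adjusted p = 0.00416). NT5E, the cell surface enzyme that turns AMP into adenosine, fell from 155 ± 65.9 to 49.2 ± 8.97 (-1.60, SE 0.20, adjusted p = 0.00522). Reads of AMPD3 were 2.73, 1.10, 3.04, 0.804 and 1.41 times those of NT5E in dogs 1 to 5 in Pre-ACTH and 6.36, 7.97, 10.4, 12.9 and 12.8 times in Post-ACTH. This ratio was higher in all 5 dogs without overlap. Both genes came from the study's list of called genes, with opposite directions, so this separation is no independent observation. In dog 1 the AMPD3 count itself was not higher (376 and 301), and the ratio rose through NT5E (138 and 47.3). The cytosolic nucleotidase NT5C averaged 189 and 293 (0.63, SE 0.13, adjusted p = 0.0241).

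Of the 6 phospholipase C family genes that could be followed, PLCD4 was the only one with a higher average in Post-ACTH. PLCB2 fell from 153 ± 42.1 to 62.4 ± 18.1 normalized counts (log2FC -1.29, SE 0.13, adjusted p = 0.00376), PLCG2 from 216 ± 21.0 to 117 ± 25.2 (-0.90, SE 0.12, adjusted p = 0.00684), and ITPR1, the receptor for the inositol trisphosphate that these enzymes release, from 3894 ± 1287 to 2425 ± 749 (-0.67, SE 0.10, adjusted p = 0.00956). PLCB1, PLCE1, PLCL2 and the kinase PRKCE had log2 fold changes between -0.98 and -0.45 and did not pass the threshold. PLCD4 took 5.92%, 7.56%, 4.91%, 6.25% and 8.05% of the reads of the 6 phospholipase C genes (PLCD4, PLCB1, PLCB2, PLCE1, PLCG2 and PLCL2) in dogs 1 to 5 in Pre-ACTH and 19.5%, 52.9%, 31.9%, 39.3% and 37.7% in Post-ACTH. In Post-ACTH the share was thus lowest in dog 1 and highest in dog 2, and the groups were far apart. All 6 genes were counted as family members, whatever their enzyme activity, so this is a share of reads and not of activity. All 6 were matched through the study's list of called genes, and the other genes of the family were not followed. The separation and the opposite direction of PLCD4 are therefore no independent observation. PLCB2 and PLCG2 are best known from blood cells, and the macrophage gene CSF1R averaged 1287 and 771 normalized counts (-0.75, SE 0.21, adjusted p = 0.0576). Its part in the phospholipase values was not tested.

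**Figure D3:**
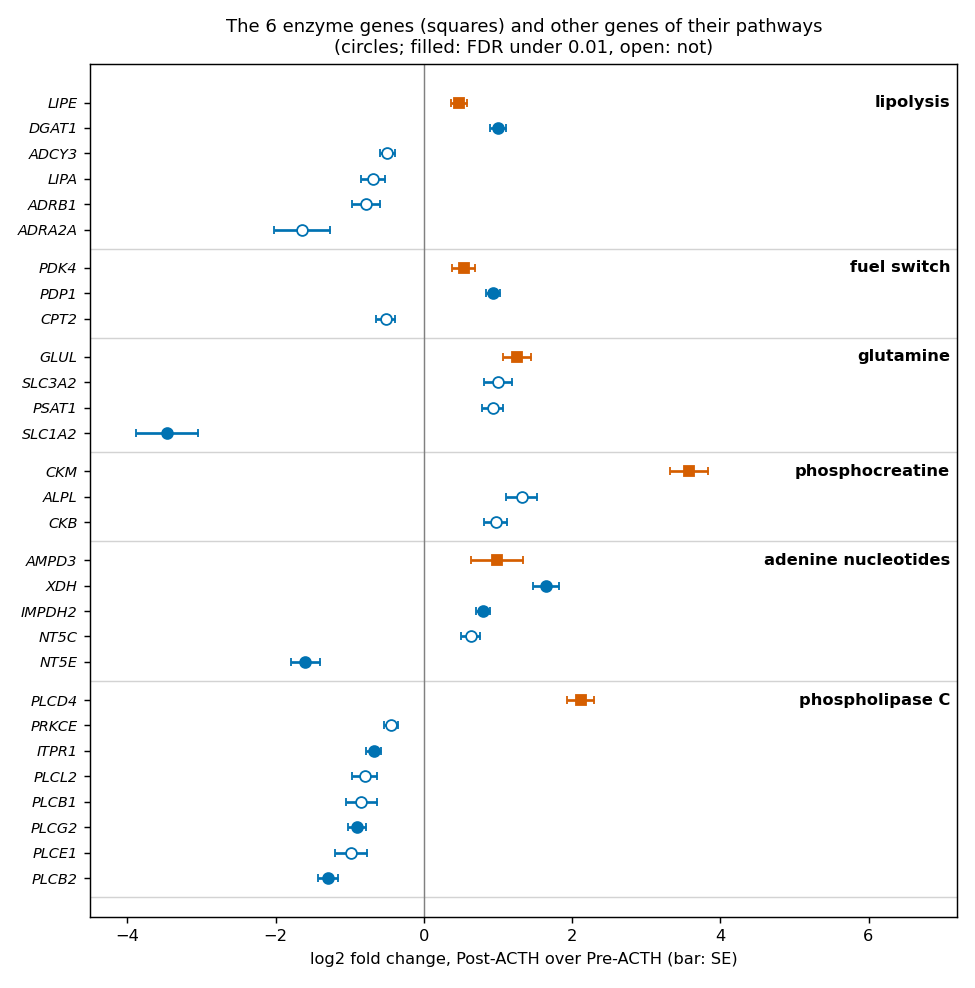
Log2 fold change (edgeR, dog as a block) with its SE for the 6 genes (squares) and 23 other genes of their pathways (circles, filled at FDR under 0.01). PLCD4 lies at 2.12 and the other 7 genes of its group between -1.29 and -0.45, whereas CKM and CKB, PDK4 and PDP1, and LIPE and DGAT1 lie on the same side of 0.

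**Figure D4:**
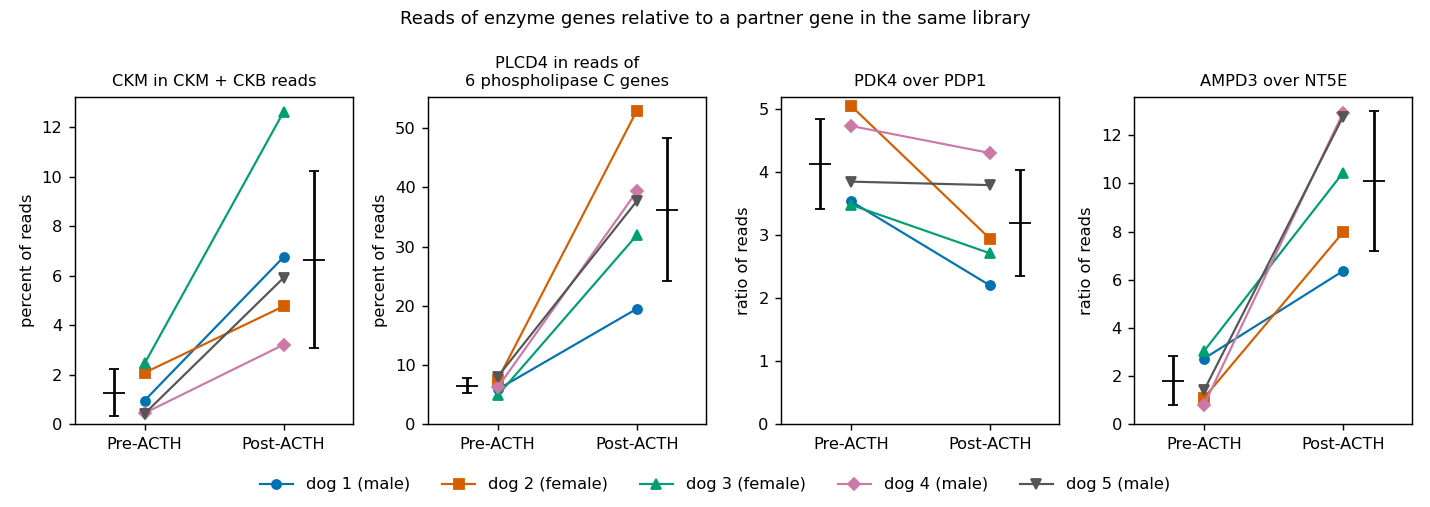
Share of CKM in the reads of CKM and CKB, share of PLCD4 in the reads of 6 phospholipase C genes, and ratios of PDK4 to PDP1 and of AMPD3 to NT5E reads, by dog, with mean and SD (n = 5) beside each group. The groups do not overlap for CKM, PLCD4 and AMPD3 over NT5E, and PDK4 over PDP1 is lower in Post-ACTH in every dog, in dog 5 only slightly. All genes shown come from the study's list of called genes, so the separation of the groups is no independent observation.

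Differences between dogs and between the sexes were not the contrast that chose the 6 genes, and were tested. These tests use the same samples. A choice by a paired contrast favors genes whose change is even between dogs, so they are not wholly independent of that choice. To ask whether a gene's level differed between dogs at both times alike, the dog terms were tested over all 13577 genes with edgeR's quasi-likelihood test, and 0.0368% of genes passed FDR under 0.01. None of the 6 did. CKM came closest (unadjusted p = 0.00687, adjusted p = 0.199), followed by PLCD4 (adjusted p = 0.360), and AMPD3 had the highest value (adjusted p = 0.838). CKM was thus the 1 gene of the 6 with an unadjusted p under 0.05, against 14.1% of all genes. DESeq2's likelihood ratio test called CKM (adjusted p = 3.9e-05) and none of the other 5, with 432 genes called in all.

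In CKM, both females lay above all 3 males in Pre-ACTH (137 and 212 normalized counts against at most 89.6) and again in Post-ACTH (1302 and 1844 against at most 978). Over the mean log2 level of each dog, females exceeded males by 1.33 (exact permutation test of the dogs, two-sided, p = 0.1, the smallest p that 3 against 2 dogs allow, and 0.6 after adjustment over the 6 genes), so this design cannot set the sexes apart. For the other 5 genes the difference lay between -0.18 and 0.38.

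The change from Pre-ACTH to Post-ACTH was also compared between the sexes, with an interaction term added to the model. Of all tested genes 0% passed FDR under 0.01, 3.20% had an unadjusted p under 0.05 and DESeq2 called 5, none of them among the 6. The 2 females had log2 ratios of PLCD4 of 2.59 and 2.63 and the 3 males of 1.44, 2.06 and 1.83, a male minus female difference of -0.83 (SE 0.22, unadjusted p = 0.00796, adjusted p = 1.0, edgeR quasi-likelihood test). It was the 1 gene of the 6 with an unadjusted p under 0.05 and did not hold after adjustment. The differences for the other 5 genes ran from -0.54 for GLUL to 0.75 for CKM, with SEs from 0.23 to 0.72 and an adjusted p of 1.0 each. Leaving out 1 dog moved all 5 of these by more than 1.5 times, for AMPD3 from 0.66 to 1.45 without dog 1 (SE 0.19, adjusted p = 0.0748) and to 0.23 without dog 4, and for CKM from 0.75 to 0.17 without dog 2 and to 1.32 without dog 3.

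The profiles of the 6 genes over the 10 libraries were compared with those of 12539 genes averaging at least 10 reads, by the root mean square difference of their centred log2 CPM, and the nearest genes with a symbol are given. Such genes share the treatment contrast, and symbols exist only for genes of the study's list. Nearest to LIPE were MRPL55 (0.10), CHCHD2 (0.12) and EIF3G (0.12), a mitochondrial ribosome protein, a mitochondrial protein and a translation initiation factor subunit. PDK4 was nearest to RNF19A (0.15), PGLS (0.18) and RHBDD2 (0.18), PGLS being an enzyme of the pentose phosphate pathway. GLUL was nearest to the kinase WNK3 (0.25), to SLC3A2 (0.28), already given above, and to TMEM52 (0.29). The nearest genes to CKM, GRTP1 (0.65), SPOCK1 (0.68) and CLVS2 (0.85), lay further from it than those of the other 5 genes. AMPD3 was nearest to the metalloproteinase MMP19 (0.30), the stress-induced sestrin SESN1 (0.35) and elastin, ELN (0.38), and PLCD4 to IGFBP3, an IGF binding protein (0.23), CLEC4G (0.30) and ITIH3 (0.32). Among the 6 genes themselves, LIPE and PDK4 were the closest pair (0.34) and PDK4 and CKM the most distant (1.79). All these distances include the size of the change from Pre-ACTH to Post-ACTH. That change was smallest for LIPE and PDK4 (log2FC 0.48 and 0.54) and largest for CKM (3.58), so the distances are no separate observation.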

How the data were processed

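The deposited values are raw counts, with a separate table for each library, which the authors made with featureCounts from reads trimmed and mapped to CanFam3.1 by STAR. Versions, annotation release, strand setting and the treatment of reads with several matches are not given in the sources used here. The labels name a stranded mRNA kit, the methods ribosomal RNA depletion. In RefSeq's annotation of another assembly, CKM overlaps KLC3 and GLUL overlaps RGSL1. LIPE, PDK4 and PLCD4 each overlap a lncRNA there. Reads of such pairs cannot be told apart without strand. AMPD3 was not checked for overlapping genes. Symbols came from the study's list of 1190 genes, 1079 with a symbol. The authors' fold changes and p-values in that list were not used, and no sequences were used here.

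Counts were analysed in R 4.3.3 with edgeR 4.0.16 (TMM, estimateDisp, glmQLFit, glmQLFTest) with the dog as a block, Benjamini-Hochberg adjustment and FDR under 0.01, over the 13577 genes that reached 10 reads in 1 or more samples. SEs were derived from the fold change and F. The computation was also run on simulated counts, with the same dispersion for all genes and no differences between dogs beyond the planted changes. That run concerned the computation only, and nothing about these samples is concluded from it. Samples were paired by animal ID, and deviations from the group means correlated between the samples of a dog by 0.077 (dog 4) to 0.41 (dog 2). Dogs are numbered by animal ID. Alternatives were DESeq2 1.42.0, limma-voom (limma 3.58.1), no block, other scaling, filters and threshold, and leaving out each dog. The exact test of sex, the ratios within a library and TTN were added after seeing the data. Members, gene lists and tests were chosen with earlier results of these data known. Named genes were the 6 members, listed genes past the threshold (up to 5 per list) and fixed partners, the 3 most alike profiles per member, and the leading marker of each list. The other matched genes and markers were named after their values were seen. The study processed all samples together and the labels name no batch, and all p-values rest on 5 dogs. Figures were drawn with matplotlib 3.10.9.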

Additional observations from a re-analysis of the deposited data

How the results depend on the processing

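Counts of called genes depended on the dogs included. For Post-ACTH against Pre-ACTH, 268 genes were called, 1509 at FDR under 0.05, 1180 with DESeq2, 438 with 1 read in 1 sample as the filter and 1 (without dog 2) to 318 (without dog 1) when each dog was left out. Of the 23 pathway genes 9 were called, all 23 at FDR under 0.05 and with DESeq2, and 0 to 9 with a dog left out. Without the replicate block, 262 genes and 7 of the 23 were called, PLCB2 and ITPR1 missing the threshold (adjusted p = 0.0110 and 0.128, edgeR), and no other call among the 23 changed. For differences between dogs, 5 genes were called, 36 at FDR under 0.05, 432 with DESeq2, 15 with the 1-read filter and 1 to 8 with a dog left out. For the sex interaction, 0 genes were called in edgeR, also with each dog left out, and 5 with DESeq2. The cause of these differences was not tested. All 6 genes themselves were under FDR 0.01 with DESeq2. The study's list was made with DESeq2 on these same samples, paired by animal, at the same threshold. The 6 genes and the 23 pathway genes came from that list. Their DESeq2 counts therefore followed from the choice and are no further observation. Their log2 fold changes with each dog left out ran from 3.36 to 3.87 for CKM, from 2.00 to 2.28 for PLCD4, from 1.08 to 1.43 for GLUL, from 0.72 to 1.32 for AMPD3, from 0.42 to 0.67 for PDK4 and from 0.42 to 0.52 for LIPE. The male minus female difference, each dog left out in turn, ran from -0.016 (without dog 1) to 0.22 (without dog 5) for LIPE, from 0.046 (without dog 5) to 0.53 (without dog 1) for PDK4, from -0.95 (without dog 2) to -0.11 (without dog 3) for GLUL, from 0.17 (without dog 2) to 1.32 (without dog 3) for CKM, from 0.23 (without dog 4) to 1.45 (without dog 1) for AMPD3 and from -0.97 (without dog 4) to -0.67 (without dog 1) for PLCD4. The lowest adjusted p among these was 0.0748, for AMPD3 without dog 1 (edgeR quasi-likelihood test).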
